A study of Mus musculus with 6 samples.

Results

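The miR-30 family was examined in small RNA libraries of neural stem cells (NSCs, which divide to give neurons and glia) isolated from the hippocampus of C57BL/6J males on postnatal day 3. The 8 members were taken by name: mmu-miR-30a-5p, mmu-miR-30a-3p, mmu-miR-30b-5p, mmu-miR-30c-5p, mmu-miR-30c-1-3p, mmu-miR-30d-5p, mmu-miR-30e-5p and mmu-miR-30e-3p, written without the species prefix from here on. All 8 were present among the 1522 mature miRNAs of the deposited table, and none shared its values with another row. In the exposed group (GDE, titled IUGR in the library names), pregnant dams were injected into the abdomen each day, from E14.5 until E18.5 (E, embryonic day), with 1 mg/kg of the synthetic glucocorticoid dexamethasone. Dams of the Control group (titled Normal) were given saline on the same days. Each group had 3 libraries, from independent litters per the design text. How many pups were pooled for a library is not given in the sources used here, and the exposure was of the whole dam and litter, not of the stem cells alone.

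A mature miRNA is cut from 1 arm of an RNA hairpin, and its bases 2 to 8, the seed, pair with target messenger RNAs. The 5p arms of the miR-30 hairpins carry a common seed and act as the usual guide strands, while the 3p arms are mostly discarded passenger strands with seeds of their own. The family is widely expressed in differentiated tissues. Known targets of its guide strands include Becn1, which starts autophagy, Snai1, a driver of mesenchymal transition, and in brain Bdnf, a neuronal growth factor. In mouse, Mir30c-1 and Mir30e lie together in an intron of Nfyc, which encodes a subunit of the transcription factor NF-Y, and Mir30a lies near Mir30c-2.

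The sequences show how close the members are to each other. RefSeq (GRCm38.p6) entries matched 6 of the 8 members by name. They are given 5′ to 3′ with the seed in capitals, the guide strands first, because shared seeds and near-identity decide which members can be counted and read apart.
miR-30a-5p: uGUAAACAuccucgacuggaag
miR-30c-5p: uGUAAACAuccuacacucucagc
miR-30e-5p: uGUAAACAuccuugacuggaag
miR-30a-3p: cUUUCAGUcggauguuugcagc
miR-30e-3p: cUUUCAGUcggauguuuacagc
miR-30c-1-3p: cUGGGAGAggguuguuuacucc

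The 3 guide strands shown shared their first 12 bases and the seed GUAAACA. Counted from 1 at the 5′ end, miR-30a-5p and miR-30e-5p differed by 1 substitution over 22 bases (C13U, miR-30a-5p first). Their passenger strands likewise differed by 1 substitution (G18A, miR-30a-3p first) and had the seed UUUCAGU. How the authors assigned reads that fit both miR-30a and miR-30e is not given in the sources used here, so the split between these 2 precursors is uncertain. miR-30c-5p is made with the same sequence by Mir30c-1 and Mir30c-2, and its value is the sum of both. The passenger strands of those hairpins, miR-30c-1-3p and miR-30c-2-3p, differed by 3 substitutions (G9A, U12C and C22U, miR-30c-1-3p first) and so mark their hairpins separately. Outside the miR-30 names, 1 further miRNA of the reference had the seed GUAAACA, miR-384-5p, a brain miRNA from the X chromosome (chrX:105344332-105344354, minus strand).

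The hairpins of the Nfyc pair are shown because they lie in the same intron and their products are set against each other below. Capitals mark the mature 5p and 3p arms.
Mir30e: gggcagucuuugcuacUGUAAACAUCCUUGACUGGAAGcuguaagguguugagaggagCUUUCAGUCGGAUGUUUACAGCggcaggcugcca
Mir30c-1: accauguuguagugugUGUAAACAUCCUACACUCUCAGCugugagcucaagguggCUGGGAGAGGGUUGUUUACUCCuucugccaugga

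Both lie on the minus strand of chromosome 4 (GRCm38), Mir30e at chr4:120772606-120772697 and Mir30c-1 at chr4:120769534-120769622, with 2983 bases between them. In GENCODE M21 both fell in an intron of all 6 Nfyc transcripts that span them, on the strand of Nfyc. The Mir30f gene overlaps Mir30e on the opposite strand, and no miRNA named miR-30f was among those deposited. Mir30a (chr1:23272269-23272339, plus strand) and Mir30c-2 (chr1:23291701-23291784, plus strand) are 19361 bases apart. Mir30c-2 overlaps an exon of the long noncoding RNA Gm27028, and Mir30a overlaps no annotated gene but its own.

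Values were deposited as RPM, read numbers normalised to library depth, from which whole tags were recovered. The libraries rested on 11751322 to 12384958 tags, of which 2927136 to 3343808 lay in the table. Counting error was small for the members: the fewest tags were 477, for miR-30c-1-3p, which gives a counting coefficient of variation of 4.58%, and miR-30b-5p had at least 25376 tags. It covers counting only, since PCR reads without molecular identifiers are not independent molecules. Messenger RNA markers of NSCs were not measured. Among miRNA markers, the progenitor miRNAs miR-9-5p, miR-9-3p and miR-92b-3p summed to 18014 to 19884 RPM per library, and the 6 neuronal ones to 2619 to 3113 RPM. Marker miRNAs of blood and vessel cells were present too, and their values follow those of miR-30e below. In such bulk samples, fewer cells of a type and less RNA per cell cannot be told apart.

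**Figure D1:**
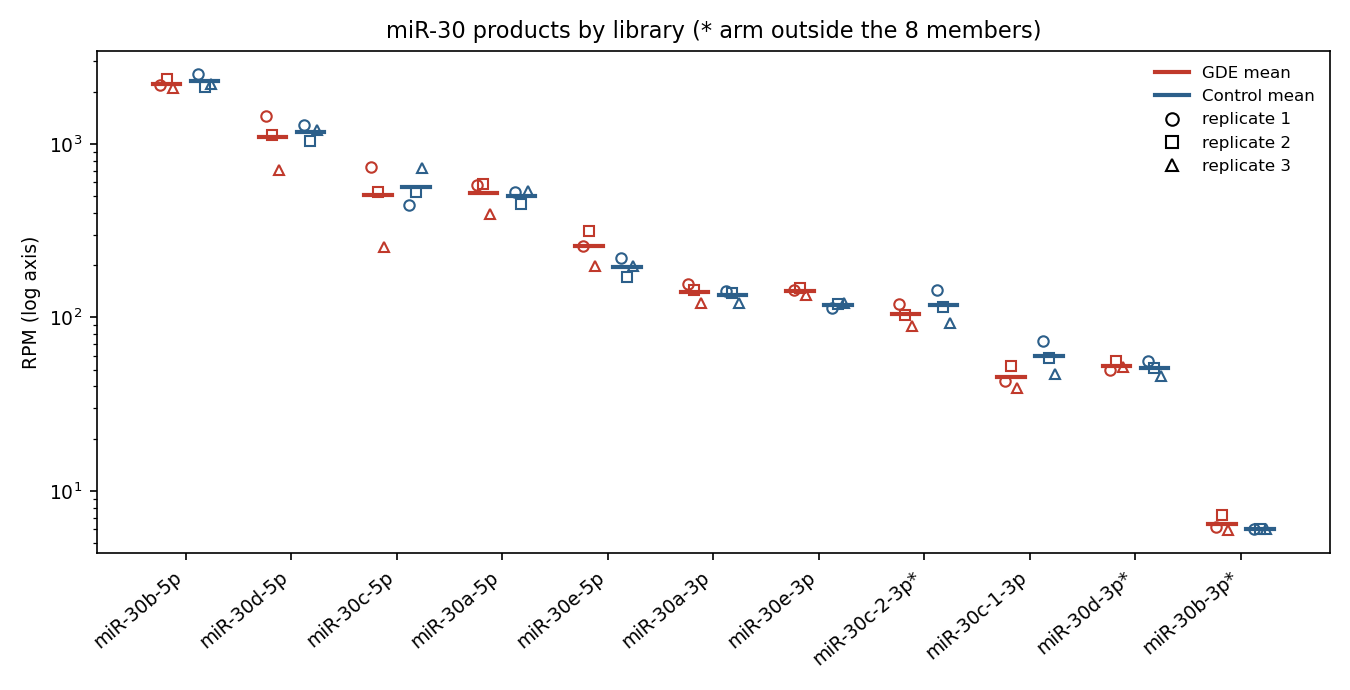
RPM (log axis) of the 8 members and of 3 further arms, marked with an asterisk, in each library; points are libraries, with the replicate number as the shape, and lines are group means (n = 3). Levels run from about 2252 RPM for miR-30b-5p to 6.26 RPM for miR-30b-3p, and GDE replicate 3 is the lowest point for miR-30c-5p and miR-30d-5p.

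miR-30b-5p was the most abundant member and ranked 33 among all miRNAs of the table by mean RPM. It stood at 2186, 2358 and 2092 RPM in GDE replicates 1 to 3 and at 2541, 2117 and 2215 RPM in Control replicates 1 to 3. The highest value was only 1.21 times the lowest, and the groups overlapped. For miR-30d-5p, the second guide strand in level, GDE libraries held 1451, 1121 and 709 RPM and Control libraries 1287, 1043 and 1199.95 RPM. Its GDE libraries held both the highest and the lowest value of the 6.

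miR-30c-5p, the guide strand shared by Mir30c-1 and Mir30c-2, had the widest spread of the members. Its GDE libraries were at 738, 525 and 253 RPM and its Control libraries at 446, 529 and 724 RPM. The range within GDE was as wide as that over all libraries, 2.91 times from lowest to highest, against a counting error of at most 1.804%. miR-30a-5p was steadier, with 582, 585 and 395 RPM in the exposed libraries against 525, 452 and 532 RPM. For both miRNAs the lowest library was GDE replicate 3 and the groups overlapped.

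miR-30e-5p was the least abundant guide strand, at 258, 316 and 198 RPM in the 3 GDE libraries and 220.4, 169.7 and 198 RPM in the 3 Control libraries. The top 2 values were of GDE, and GDE replicate 3 lay among the Control libraries. Its passenger strand miR-30e-3p reached 143.17, 147 and 135 RPM in the GDE libraries, and 113, 120.1 and 121 RPM in those of Control. Here each GDE library lay above each Control library, and the spread within a group was the smallest of the members (coefficient of variation 4.33% in GDE and 3.51% in Control).

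The passenger strand miR-30a-3p gave 156, 143.2 and 121 RPM in the GDE libraries and 142.03, 139 and 121 RPM in the Control libraries, with overlapping groups. miR-30c-1-3p, which comes from Mir30c-1 alone, was the lowest member. Its GDE libraries held 43.2, 52.6 and 39.3 RPM and its Control libraries 73.2, 58.5 and 47.4 RPM. The top 2 values were of Control, while GDE replicate 2 lay above Control replicate 3.

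The order of the members was compared within each library by an exact two-sided sign-flip permutation test on the 6 log2(RPM + 1) differences of neighbours, adjusted over the 7 neighbouring pairs. The smallest p this design allows is 0.03125, and 5 of the 7 pairs reached it (0.04375 adjusted), in the same order in 6 of 6 libraries. These were miR-30b-5p above miR-30d-5p (mean log2 difference 1.02, SD 0.32), miR-30d-5p above miR-30c-5p (1.13, SD 0.31), miR-30a-5p above miR-30e-5p (1.19, SD 0.22), miR-30e-5p above miR-30a-3p (0.70, SD 0.27) and miR-30e-3p above miR-30c-1-3p (1.32, SD 0.43). miR-30c-5p and miR-30a-5p did not differ beyond their spread (mean log2 difference -0.0029, SD 0.41; exact permutation p = 0.969; 3 of 6 libraries each way). Nor did miR-30a-3p and miR-30e-3p (0.074, SD 0.18; exact permutation p = 0.406). Adaptor ligation favours some sequences, so an order of tags is not an order of molecules.

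**Figure D2:**
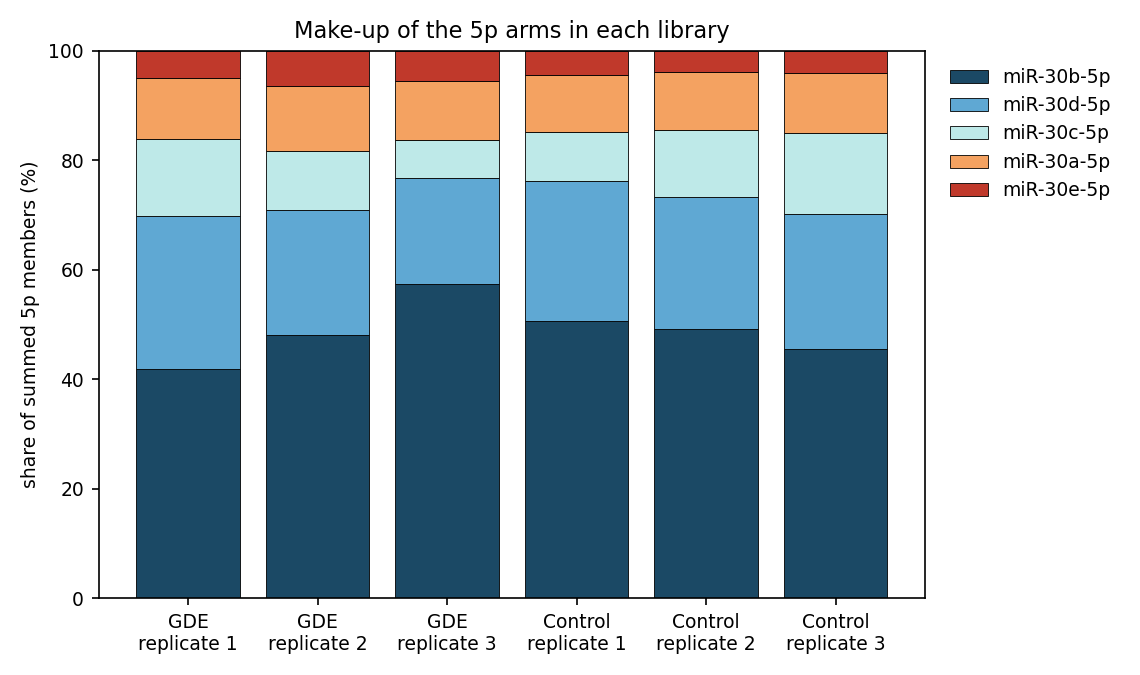
Share of each 5p member in the summed RPM of the 5 in each library, in percent; each bar is 1 library. The share of miR-30b-5p is largest in GDE replicate 3, at 57.4%, and that of miR-30e-5p, the top segment, is larger in each GDE library (4.96% to 6.45%) than in each Control library (3.94% to 4.39%).

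Summed, the 5 guide strands came to 5216, 4906 and 3649 RPM in GDE and to 5019, 4312 and 4868 RPM in Control. This was 1.51% to 2.02% of the RPM in the table, with the lowest share in GDE replicate 3 and the highest in GDE replicate 1. miR-30b-5p made up 41.9% to 57.4% of the sum, miR-30d-5p 19.4% to 27.8%, miR-30c-5p 6.94% to 14.9% and miR-30a-5p 10.5% to 11.9%, all with overlapping groups. The share of miR-30e-5p was 4.96%, 6.45% and 5.44% in GDE and 4.39%, 3.94% and 4.06% in Control, so the groups did not overlap. This was 1 of the 5 shares, and the RPM of miR-30e-5p itself overlapped. Among ratios of 2 tested miRNAs, the groups did not overlap for 15.3%. GDE replicate 3 held the lowest value for 4 of the 5 guide strands, where it was the lowest library for 32.0% of all tested miRNAs. The plot of shares shows that its low sum came with a larger part for miR-30b-5p and a smaller one for miR-30c-5p and miR-30d-5p.

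Across the 6 libraries, miR-30a-5p, miR-30c-5p and miR-30d-5p followed each other most closely. Pearson's r on log2(RPM + 1) was 0.88 between miR-30a-5p and miR-30d-5p, 0.86 between miR-30c-5p and miR-30d-5p, and 0.79 between miR-30a-5p and miR-30c-5p. miR-30b-5p had an r of 0.50 with miR-30d-5p and of 0.12 with miR-30c-5p, and its highest within the 8 members was 0.75, with miR-30c-1-3p. The lowest r within the 8 members was -0.65, between miR-30e-3p and miR-30c-1-3p. miR-30e-5p had its highest r within the 8 members with miR-30a-5p, which differs from it by 1 base, at 0.73, followed by its own passenger strand at 0.72. These are descriptions over 6 libraries that share their depth and GDE replicate 3.

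The study's comparison, GDE against Control, asks whether exposure to dexamethasone before birth altered miRNAs of these cells. All 8 members passed the filter on low values (1 RPM or more in at least 3 libraries), and none passed the test of the difference between the groups. In limma over 649 miRNAs, 0 of 8 had an adjusted p under 0.05, against 0.308% of all tested, and 0 had an unadjusted p under 0.05, against 8.63% of all. Log2 folds of GDE over Control, taken as differences of log2(RPM + 1), were positive for 4 members and negative for 4, against 38.8% positive of all tested, with a median of -0.0086 against -0.067 over all tested miRNAs. Scaled to the tags in the table, miR-30b-5p turned positive, which gave 5 positive members and a median of 0.051. The groups were apart for 1 of 8 members, miR-30e-3p, where 14.6% of all tested miRNAs were apart. Its exact two-sided permutation p was 0.1, the smallest that 3 against 3 libraries allow.

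**Figure D3:**
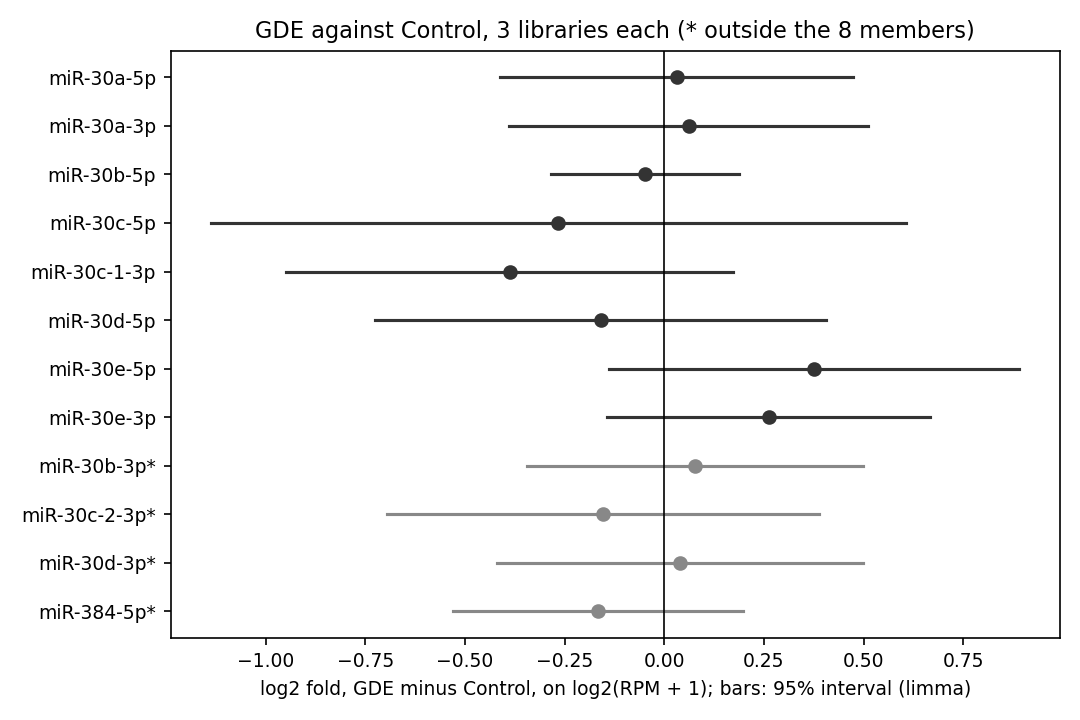
Log2 fold of GDE over Control on the log2(RPM + 1) scale with its 95% interval from limma, for the 8 members and, with an asterisk, 3 further arms and miR-384-5p (n = 3 libraries each). Each interval crosses 0, that of miR-30c-5p is the widest, and the arms of miR-30e lie to the right while miR-30c-1-3p lies to the left.

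The arms of Mir30e had the highest log2 folds of the family. For miR-30e-5p the mean was 257.8 ± 59.0 RPM with exposure and 196.0 ± 25.4 RPM without (± SD, n = 3), which is 0.38 on the log2 scale (SE 0.22, 95% interval -0.14 to 0.89; limma, adjusted p = 0.618). For miR-30e-3p the mean was 141.98 ± 6.15 against 118.2 ± 4.15 RPM, or 0.26 on the log2 scale (SE 0.18, interval -0.14 to 0.67; limma, adjusted p = 0.643). Without GDE replicate 3 these log2 folds were 0.55 and 0.30, and without GDE replicate 2 that of miR-30e-5p was 0.22. Their adjusted p over the alternatives ran from 0.320 to 0.941 and from 0.411 to 0.908. On recovered tags, none of the 8 members passed an adjusted p under 0.05 in edgeR, DESeq2 or limma-voom. These tools called 0.308%, 1.25% and 0.154% of the 649, 560 and 649 miRNAs to which they gave an adjusted p. At an unadjusted p under 0.05, miR-30e-5p alone of the members passed in edgeR (log2 fold 0.49) and in limma-voom (0.48), and both miR-30e-5p (0.49) and miR-30e-3p (0.35) passed in DESeq2. At that level edgeR, limma-voom and DESeq2 had 8.01%, 7.86% and 8.80% of the 649, 649 and 648 miRNAs with a p.

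miR-30c-1-3p, from the hairpin beside Mir30e, had the lowest log2 fold. Its mean was 45.0 ± 6.81 RPM with exposure and 59.7 ± 12.9 RPM without (log2 fold -0.39, interval -0.95 to 0.17; limma, adjusted p = 0.626). Without Control replicate 1 its log2 fold was -0.23. miR-30c-5p had means of 505.4 ± 243.03 against 566.4 ± 142.995 RPM and the widest interval of the members, from -1.14 to 0.61. Without GDE replicate 3 its log2 fold went from -0.27 to 0.17 and that of miR-30d-5p from -0.16 to 0.12, and without GDE replicate 1 they were -0.60 and -0.39. Leaving out 1 Control library gave log2 folds of -0.42 (without replicate 1) to -0.074 (without replicate 3) for miR-30c-5p and of -0.24 (without replicate 2) to -0.093 (without replicate 1) for miR-30d-5p. The narrowest interval was that of miR-30b-5p, -0.28 to 0.19. For miR-30a-5p it ran from -0.41 to 0.47, for miR-30a-3p from -0.39 to 0.51 and for miR-30d-5p from -0.73 to 0.41.

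The 2 hairpins of the Nfyc intron were compared with each other within each library. miR-30e-3p over miR-30c-1-3p gave a ratio of 3.32, 2.81 and 3.44 in GDE and of 1.55, 2.05 and 2.55 in Control. Each GDE library thus lay above each Control library, by 0.65 on the log2 scale between the group means (exact permutation p = 0.1, the smallest possible). Such ratios were apart for 15.3% of all pairs of tested miRNAs, and miR-30e-3p was already apart by itself. miR-30e-5p over miR-30c-1-3p gave 5.99, 6.02 and 5.05 in GDE and 3.01, 2.90 and 4.17 in Control, again apart, by 0.76 on the log2 scale (exact permutation p = 0.1). Leaving out any 1 library left these differences between 0.47 and 0.82 and between 0.67 and 0.93. The counting error of either ratio was at most 5.20%. Set against the shared miR-30c-5p, the ratios of the miR-30e arms overlapped between the groups. For the other neighbouring hairpins, Mir30a and Mir30c-2, miR-30a-3p over miR-30c-2-3p was 1.30, 1.39 and 1.35 in GDE and 0.988, 1.21 and 1.297 in Control, apart by 0.21 on the log2 scale (exact permutation p = 0.1). With the guide strand, miR-30a-5p over miR-30c-2-3p, the groups overlapped (exact permutation p = 0.5). This ratio was 4.85, 5.67 and 4.41 in GDE and 3.65, 3.95 and 5.71 in Control.

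**Figure D4:**
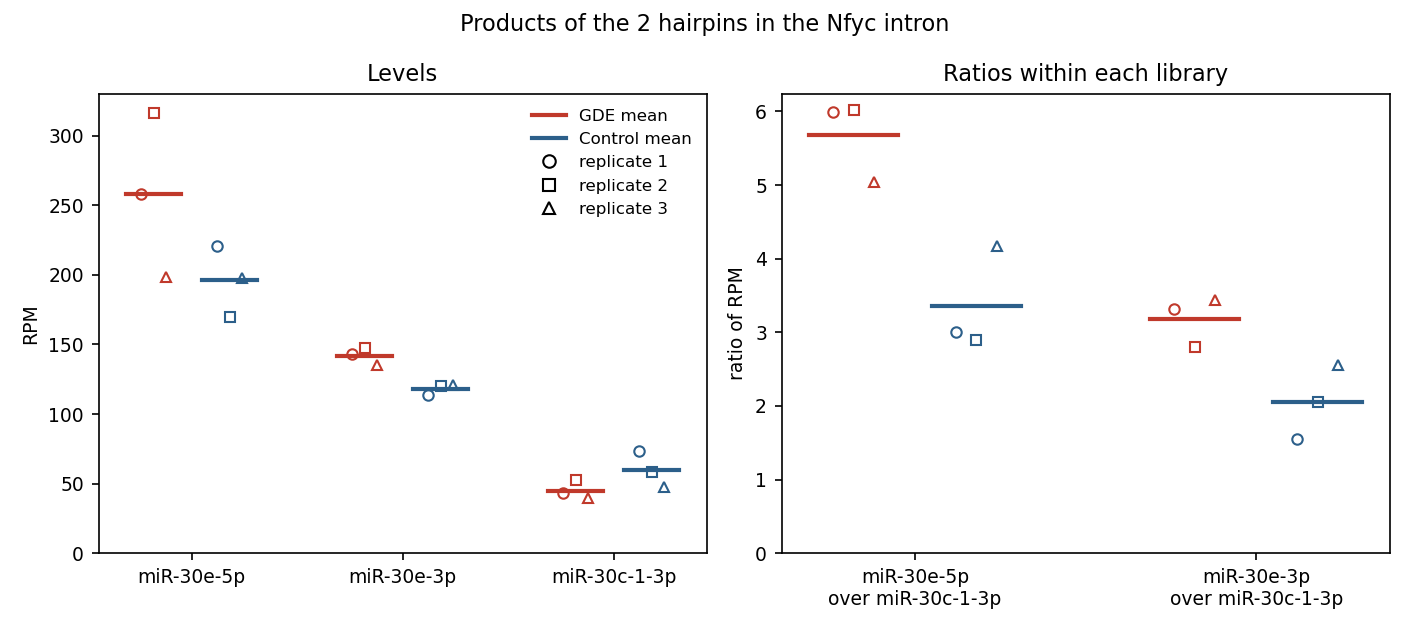
Left, RPM of the products of Mir30e and of the 3p arm of Mir30c-1; right, the ratio of each miR-30e arm to miR-30c-1-3p within a library. Points are libraries, with the replicate number as the shape, and lines are group means (n = 3); the levels overlap for miR-30e-5p and miR-30c-1-3p, and both ratios are higher in the 3 GDE libraries than in the 3 Control libraries.

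Over all 28 pairs of members, the ratio was apart between the groups for 8, or 28.6%, where 15.3% of the 210276 pairs of all tested miRNAs were apart. Pairs share members, so these are not 8 separate results. A miR-30e arm took part in 7 of the 8, each time with the higher value for miR-30e in GDE. The eighth pair was miR-30a-3p over miR-30c-1-3p. miR-30a-5p over miR-30e-5p, which differ by 1 base, was 2.25, 1.85 and 1.99 in GDE and 2.38, 2.66 and 2.69 in Control (log2 difference -0.35; exact permutation p = 0.1). The passenger strands of this pair overlapped, with miR-30a-3p over miR-30e-3p at 1.09, 0.971 and 0.892 in GDE and 1.25, 1.16 and 0.997 in Control.

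Summed marker miRNAs of blood cells lay higher in each GDE library than in each Control library, as miR-30e-3p did. Beside the counts below, 14.6% of all tested miRNAs were apart and 38.8% had a positive log2 fold. The 4 microglia and leukocyte miRNAs (miR-142a-3p, miR-142a-5p, miR-150-5p and miR-223-3p) summed to 315 to 477 RPM in GDE and to 107 to 256 RPM in Control, and 3 of the 4 were apart. The 4 erythroid ones (miR-451a, miR-144-3p, miR-144-5p and miR-486a-5p) summed to 73.9 to 93.6 RPM in GDE and 35.0 to 69.1 RPM in Control, with miR-144-5p at no more than 0.085 RPM. Only 2 of these 4 passed the filter, and 1 was apart. The difference in this sum lay mostly in miR-451a (mean 65.3 RPM in GDE and 34.5 in Control), while miR-486a-5p had means of 15.6 and 15.0 RPM. No marker passed an adjusted p under 0.05 in limma. The 4 endothelial and mural miRNAs (miR-126a-3p, miR-126a-5p, miR-143-3p and miR-145a-5p) summed to 340 to 559 RPM in GDE and 316 to 409 RPM in Control; all 4 had a positive log2 fold and 2 were apart. The progenitor, neuronal, choroid plexus and ependymal, and oligodendrocyte lists also overlapped between the groups in their sums. Single members differed in direction: log2 folds were positive for 0 of 3 progenitor, 4 of 6 neuronal and 3 of 3 oligodendrocyte miRNAs. In the choroid plexus and ependymal list, 2 of 4 were positive and 1 was apart. The part of any of these lists in the values of miR-30e was not tested.

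**Figure D5:**
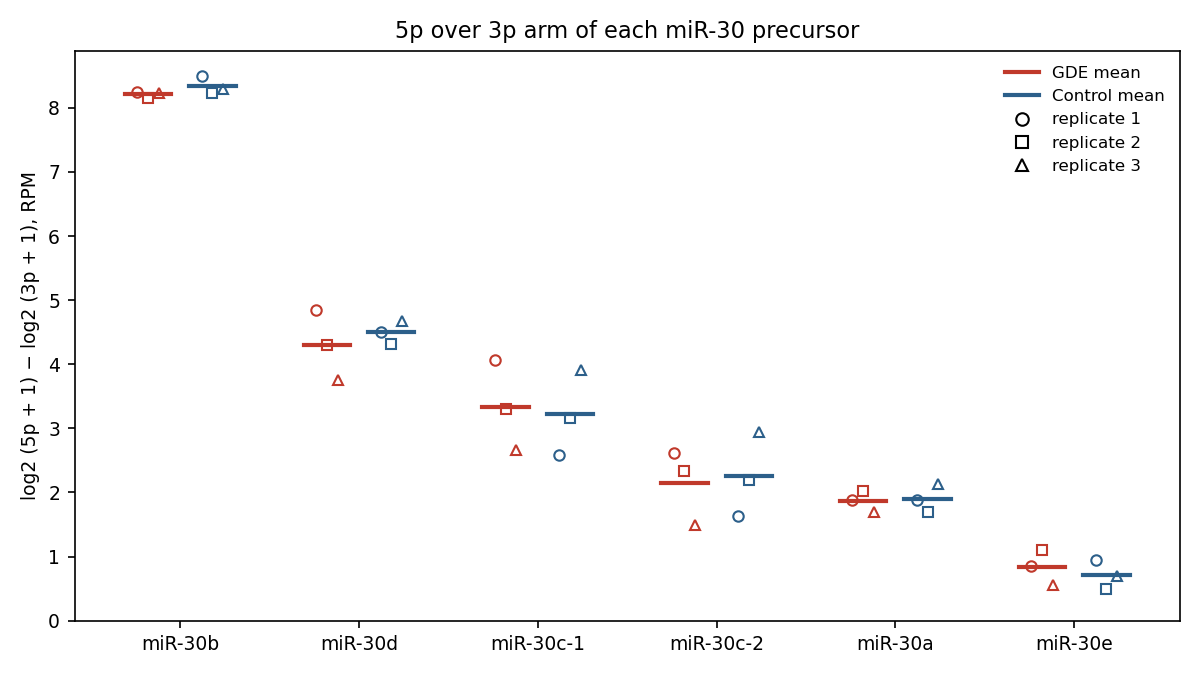
Log2 of the 5p arm minus log2 of the 3p arm, on RPM + 1, for the 6 miR-30 precursors in each library; points are libraries and lines are group means (n = 3). The ratio falls from about 8.28 for miR-30b to 0.77 for miR-30e, and the groups overlap for each precursor.

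The 5p arm exceeded the 3p arm in each of the 6 libraries for all 6 precursors, but by very different amounts. miR-30b-5p was at 324 to 419 times the level of miR-30b-3p, which had only 71 to 86 tags per library. miR-30d-5p was at 13.8 to 29.2 times miR-30d-3p. miR-30a-5p was at 3.26 to 4.402 times miR-30a-3p, and miR-30e-5p at only 1.41 to 2.15 times miR-30e-3p. By tags, the strands of Mir30e thus came closest to equal. Ligation of unlike sequences and the unknown split of reads between miR-30a and miR-30e both enter such ratios. miR-30c-5p was at 6.09 to 17.1 times miR-30c-1-3p and 2.83 to 7.78 times miR-30c-2-3p, each an upper limit for its hairpin, since miR-30c-5p comes from both.

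No arm ratio of the family passed the test between the groups. In limma over 189 pairs of arms, 0 of the 6 miR-30 precursors had an adjusted p under 0.05, as did 0% of all pairs, and 0 had an unadjusted p under 0.05, against 7.41% of all. The groups were apart for 0 of the 6, against 11.1% of all pairs. For miR-30e the log2 ratio was 0.83 ± 0.27 in GDE and 0.72 ± 0.23 in Control, a difference of 0.11 (95% interval -0.45 to 0.68; limma, adjusted p = 0.958). For miR-30a the difference was -0.030 (interval -0.55 to 0.49) and for miR-30b -0.12 (interval -0.49 to 0.24). The wide intervals of the miR-30c ratios, -0.93 to 1.18 against miR-30c-1-3p and -1.09 to 0.87 against miR-30c-2-3p, came with the spread of miR-30c-5p.

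The other arms of the family had no difference past the threshold either. For miR-30c-2-3p the GDE libraries held 120.0, 103 and 89.6 RPM and the Control libraries 143.7, 114 and 93.1 RPM. In RPM it stood above miR-30c-1-3p in each library, by 1.96 to 2.78 times. For miR-30d-3p these were 49.7, 55.9 and 51.5 RPM against 55.7, 51.3 and 46.1 RPM. For miR-30b-3p they were 6.18, 7.28 and 5.94 RPM against 6.07, 6.06 and 6.04 RPM. The groups overlapped for these 3 arms, with adjusted p between 0.901 and 0.989 in limma.

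miR-384-5p, with the seed of the guide strands, stood at 529.5, 582 and 616 RPM in GDE and 760.1, 630.3 and 560.4 RPM in Control. It thus added about as many tags with that seed as miR-30c-5p or miR-30a-5p. The groups overlapped (log2 fold -0.17, interval -0.53 to 0.20; limma, adjusted p = 0.773). Outside the family, the miRNAs whose pattern over the 6 libraries was most like the mean log2(RPM + 1) of the 5 guide strands were taken from 325 tested miRNAs of at least 10 RPM. They were miR-34a-5p (Pearson's r 0.98), miR-140-3p (0.98), miR-185-5p (0.95), miR-29a-3p (0.93) and miR-598-3p (0.92). GDE replicate 3 was the lowest library for all 5, as for the mean of the guide strands, so these likenesses over 6 libraries share that library.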

How the data were processed

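RNA was isolated with TRIzol and MGI small RNA libraries were prepared, per the labels' protocols. Bowtie2 and mm10 are named, without versions or roles, in the submitters' processing notes. Trimming and multiply matching reads are described in none of the sources used here. Groups were taken from the titles. The unit of the deposited table was taken to be RPM: 100% of nonzero values were whole multiples of 1 step per library within 0.1 tags, which gave the depth. The authors' RPM are relative to the whole library and not to length; ligation, composition and the assignment of reads can bear on levels.

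The main test was limma 3.58.1 (R 4.3.3) with a trend on log2(RPM + 1), over 649 miRNAs of at least 1 RPM in 3 libraries, two-sided, with Benjamini-Hochberg adjustment and a threshold of 0.05. Arm ratios were tested the same way over 189 pairs of 5p and 3p names, leaving out pairs with values identical to another. Alternatives were edgeR 4.0.16, DESeq2 1.42.0 and limma-voom on recovered tags, other filters, pseudocounts and scaling, a replicate block, and omission of each library in turn; alternatives for the pair ratios were added after seeing the data. Replicates differed by more than sampling noise (chi-square per degree of freedom 47.1 to 173.1 between pairs). Sequences are from RefSeq (GRCm38.p6), which matches mm10. The members, lists and markers were chosen with earlier results of these data known. Named were the members, the other arms of miR-30 hairpins, miRNAs sharing their seed, and the 5 most similar miRNAs. The scripts were tested on simulated data. Other steps ran in Python 3.11.15 (pandas 2.3.3).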

Additional observations from a re-analysis of the deposited data

How the results depend on the processing

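The number of miRNAs past the threshold was 2 in limma and 2 with edgeR, 7 with DESeq2, 1 with limma-voom and 1 with at least 10 RPM in 3 libraries; it was 2 to 3 when 1 library was left out. No miR-30 product passed in any of these settings. The same replicate numbers do not pair litters, and deviations of same-numbered libraries correlated at -0.12 to -0.030; with a replicate block, 2 miRNAs and 0 arm ratios passed. For miR-30b-5p the log2 fold of -0.048 became 0.055 with edgeR, 0.049 with DESeq2, 0.055 with limma-voom and 0.012 when scaled to the tags in the table, and lay between -0.10 and 0.029 when 1 library was left out. Leaving out 1 library also turned the log2 fold of miR-30a-5p (-0.065 to 0.22), miR-30a-3p (-0.022 to 0.16), miR-30c-5p (-0.60 to 0.17), miR-30d-5p (-0.39 to 0.12), miR-30c-2-3p (-0.31 to 0.0035) and miR-30d-3p (-0.030 to 0.10). It likewise turned the arm ratio difference of miR-30a (-0.13 to 0.083), miR-30c-1 (-0.24 to 0.47), miR-30c-2 (-0.43 to 0.23), miR-30d (-0.47 to 0.072) and miR-30e (-0.019 to 0.26). The cause of these turns was not tested beyond the library left out. The folds of miR-30e-5p (0.22 to 0.55), miR-30e-3p (0.23 to 0.30) and miR-30c-1-3p (-0.54 to -0.23) were all of 1 sign; for miR-30e-3p, whose groups do not overlap, and for the pair ratios, leaving out 1 library cannot turn the sign. With 3 libraries a group the intervals, not the depth, limit what can be said of the members.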

Other observations

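For 2 minor values, picked after all were seen, the spread within Control was smaller than the counting error, which 3 libraries can give by chance. miR-30b-3p had 73, 75 and 71 tags in the 3 Control libraries and a coefficient of variation of 0.21% in RPM, against a counting error of up to 11.9%. The ratio of miR-30c-2-3p to miR-30c-1-3p was 1.96 in each Control library, with a coefficient of variation of 0.223%, against a counting error of 4.14% to 5.49% per library. In GDE the same ratio was 2.78, 1.96 and 2.28, a coefficient of variation of 17.6%, which is above its counting error. The small Control SDs are thus no guide to the error of the values, and the counting error covers only a part of it.

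By tags, whose split between these 2 precursors is uncertain, the strands of Mir30a and Mir30e differed in another way. miR-30a-3p was at 0.892 to 1.25 times miR-30e-3p over the 6 libraries, while miR-30a-5p was at 1.85 to 2.69 times miR-30e-5p.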
